A study of Homo sapiens and Mus musculus with 74 samples.

Results

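The 10 circadian clock genes Per1, Per2, Per3, Ciart, Nr1d1, Nr1d2, Dbp, Arntl, Npas2 and Clock were followed through kidney and brain libraries of mice with and without the ribosomal protein gene Rpl41. They were chosen by name as core parts of the mammalian clock, matched to the transcripts of the count table through the GENCODE M21 annotation, and each was read from its coding transcript with the longest protein. All 10 were found. They are 10 of 22484 coding genes, and their transcripts are 45 of the 142604 in the table. The knockout (KO, Rpl41-/-) lacked the whole Rpl41 coding sequence and was made with Cas9 in C57BL/6J zygotes, and wild type (WT) was Rpl41+/+. The tissues came from males aged 10 weeks, kept in 12 hours of light and 12 hours of dark at the facilities of Kyushu University and Nagoya University, and no other treatment was named. Each genotype had 3 libraries of poly(A) RNA-seq and 3 of Ribo-seq (sequencing of ribosome-protected fragments, RPFs) in kidney and in brain, and 3 of disome-seq (fragments under a pair of adjacent ribosomes) in kidney, or 30 libraries. The labels number the libraries 1 to 3 within a group but do not say whether equal numbers mark the same mouse, and the hour at which tissues were collected was not given in the sources used here.

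In the mammalian clock, ARNTL (BMAL1) pairs with CLOCK, or with the related NPAS2, and the pair binds E-box sequences to switch on the Per and Cry genes, Ciart, Nr1d1, Nr1d2 and Dbp. PER proteins, with CRY, and CIART inhibit that pair, while NR1D1 and NR1D2 (REV-ERBα and REV-ERBβ) repress Arntl and Npas2 through ROR elements, and DBP acts on D-box sequences. The loop turns once a day in kidney, brain and most other tissues, so that Arntl and Npas2 mRNA peak nearly opposite in time to Dbp and Nr1d1, whereas Clock mRNA varies little.

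Totals ranged from 44998381 to 55077048 counts in kidney RNA-seq and from 84433838 to 123745890 in brain RNA-seq. Ribo-seq had 11036643 to 42452425 counts in kidney and 9498663 to 35881929 in brain, and disome-seq had 1187636 to 3018963. Rpl41 had 3695 to 7502 counts in WT kidney RNA-seq against 3 to 8 in KO, and 8981 to 12199 in WT brain RNA-seq against 6 to 12 in KO, as the labels have it. The summed level of 6 kidney marker genes was 9500 to 10877 CPM (counts per 1000000, scaled as described with the processing) in WT kidney RNA-seq and 32.2 to 44.3 CPM in all brain RNA-seq libraries together. In KO kidney RNA-seq it was 9723 to 10108 CPM, within the WT range. In kidney Ribo-seq it was 9207 to 11040 CPM in WT and 11800 to 15295 CPM in KO. Disome-seq had 6395 to 7101 CPM in WT and 8110 to 8602 CPM in KO, again without overlap. The 6 brain markers summed to 9487 to 11148 CPM in brain RNA-seq and to 6.04 to 8.27 CPM in kidney RNA-seq. Some libraries stood apart in markers of other cells. The summed level of the pituitary genes Gh, Prl, Pomc and Cga was 1121 CPM in WT brain RNA-seq library 3 and 1267 CPM in WT brain Ribo-seq library 3, against at most 37.8 CPM in the other 10 brain libraries. In WT kidney RNA-seq and Ribo-seq these markers summed to between 0.214 and 0.852 CPM. Blood markers (5 genes) summed to 4665 CPM in WT brain RNA-seq library 2 and 3176 CPM in WT brain Ribo-seq library 2, against 632 to 1590 CPM in the other 10 brain libraries. By genotype they were 632 to 810 CPM in KO and 1132 to 3176 CPM in WT brain Ribo-seq. In brain RNA-seq they were 763 to 1440 CPM in KO and 1437 to 4665 CPM in WT, which overlapped narrowly. Pancreas markers (5 genes) summed to 156 CPM in WT brain Ribo-seq library 1, against at most 5.91 CPM in the other 11 brain libraries, and to 388 CPM in WT kidney Ribo-seq library 1, against 24.4 to 92.7 CPM in the other 5 kidney Ribo-seq libraries. These are bulk samples, in which fewer cells of a type and less RNA per cell cannot be told apart.

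The promoters were searched for the sequences through which the loop is known to act. In the 300 bases before the start of each gene (the most upstream start among coding transcripts with at least 90% of the longest protein, GRCm38.p6, RefSeq genome sequence), both strands were searched for the E-box CACGTG, the variant E-box CACGTT, the D-boxes TTATGTAA and TTACGTAA, and the ROR element core TAGGTCA. None of these motifs contains another. An E-box stood in Ciart and Per1, or 2 of the 10 genes, and in 7.24% of 22514 promoters of coding genes. The variant E-box stood in Nr1d1 and in 4.85% of promoters, a D-box in Per2 and Per3 and in 1.11%, and the ROR element core in Dbp and in 2.71%. Ciart held 3 E-boxes, 113 to 108, 55 to 50 and 41 to 36 bases before its start, Per1 held 1, 165 to 160 bases before, and Per3 held 2 D-boxes. The windows of Nr1d2, Arntl, Npas2 and Clock held none of these motifs. A match describes letters in this window and not a bound site, and no match says only that these letters are not in it. The promoters of Ciart and Per1, which hold the E-box, of Nr1d1, which holds the variant, and of Per3, which holds a pair of D-boxes, are shown 5′ to 3′ with the motifs in capitals.
Ciart, chr3:95882232-95882531, minus strand: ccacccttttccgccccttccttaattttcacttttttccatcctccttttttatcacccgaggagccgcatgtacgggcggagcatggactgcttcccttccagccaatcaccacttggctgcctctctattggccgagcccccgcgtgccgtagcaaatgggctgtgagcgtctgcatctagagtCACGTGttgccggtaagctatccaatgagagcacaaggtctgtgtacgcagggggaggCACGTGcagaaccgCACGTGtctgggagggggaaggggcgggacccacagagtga
Per1, chr11:69098648-69098947, plus strand: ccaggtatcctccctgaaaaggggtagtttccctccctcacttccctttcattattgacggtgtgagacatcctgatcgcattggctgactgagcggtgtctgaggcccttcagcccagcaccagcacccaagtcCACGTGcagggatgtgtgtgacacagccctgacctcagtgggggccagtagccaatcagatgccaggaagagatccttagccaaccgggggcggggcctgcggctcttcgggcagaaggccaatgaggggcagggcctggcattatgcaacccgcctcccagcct
Nr1d1, chr11:98775334-98775633, minus strand: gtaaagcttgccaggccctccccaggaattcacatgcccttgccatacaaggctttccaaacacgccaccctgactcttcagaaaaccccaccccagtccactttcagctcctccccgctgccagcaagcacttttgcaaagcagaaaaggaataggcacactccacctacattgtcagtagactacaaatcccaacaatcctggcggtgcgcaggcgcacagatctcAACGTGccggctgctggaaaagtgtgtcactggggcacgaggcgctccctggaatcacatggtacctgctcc
Per3, chr4:151044666-151044965, minus strand: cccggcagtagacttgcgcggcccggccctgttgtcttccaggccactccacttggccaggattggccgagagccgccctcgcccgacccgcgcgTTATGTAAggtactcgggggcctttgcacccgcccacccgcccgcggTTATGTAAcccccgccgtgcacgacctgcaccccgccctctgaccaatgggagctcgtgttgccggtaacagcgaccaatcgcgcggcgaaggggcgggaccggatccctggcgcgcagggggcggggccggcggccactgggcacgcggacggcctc

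Among the activators, Arntl mRNA differed more between WT kidneys than between genotypes. Arntl stood at 7.04, 6.45 and 0.347 CPM in WT kidney RNA-seq libraries 1, 2 and 3 and at 1.64, 0.758 and 0.975 CPM in the KO libraries. The first and second WT libraries were above every KO library, and the third WT library was below every one. Arntl footprints repeated this order, with 8.58, 8.74 and 0.0735 CPM in WT kidney Ribo-seq and 1.78, 0.910 and 1.55 CPM in KO. WT Ribo-seq library 3 held a single Arntl count, against 235 and 130 counts in WT libraries 1 and 2.

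Npas2, which encodes the partner that can take the place of CLOCK, followed Arntl. Its mRNA stood at 5.01, 4.35 and 0.204 CPM in WT kidney and 0.730, 0.758 and 0.0975 CPM in KO. Its footprints stood at 4.20, 3.90 and 0.514 CPM in WT kidney and 1.38, 0.466 and 0.517 CPM in KO. For Npas2, WT library 3 lay within the KO range in both assays, and the other WT libraries lay above every KO library. Clock itself spanned a narrower range than these genes, from 13.5 to 23.5 CPM in WT kidney RNA-seq and 16.5 to 26.0 CPM in KO. The lowest value was that of WT library 3, against 22.0 and 23.5 CPM in WT libraries 1 and 2. It was the lowest in disome-seq too, at 7.25 CPM against 18.3 and 18.7 CPM. Clock footprints ran from 7.42 to 9.14 CPM in WT and 7.11 to 8.53 CPM in KO.

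Dbp, the output transcription factor, showed the mirror image. Its kidney mRNA stood at 3.84, 5.89 and 55.0 CPM in WT libraries 1, 2 and 3 and at 38.2, 52.5 and 44.2 CPM in KO. Its kidney footprints stood at 2.70, 2.69 and 37.0 CPM in WT and 18.9, 22.2 and 21.3 CPM in KO. WT library 3 was the highest of the 6 kidney libraries in both assays, and WT libraries 1 and 2 were the lowest. Some exons of Dbp overlap those of Sphk2 on the opposite strand, by up to 539 bases, and the strand setting used for counting was not given in the sources used here.

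Ciart, which encodes a repressor of the ARNTL-CLOCK pair and has the 3 E-boxes shown above, was low in the same WT libraries. Ciart mRNA stood at 0.722, 1.03 and 4.31 CPM in WT kidney and 2.33, 5.26 and 6.78 CPM in KO, and Ciart footprints at 0.511, 0.538 and 4.55 CPM in WT and 3.36, 3.31 and 4.68 CPM in KO. The Ciart counts behind the first and second WT Ribo-seq libraries were 14 and 8.

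Of the Per genes, whose proteins form the repressor complex with CRY, Per2 stood at 5.44, 5.36 and 23.8 CPM in WT kidney RNA-seq and 9.59, 28.1 and 27.3 CPM in KO. Per3 stood at 4.37, 3.76 and 14.9 CPM in WT and 8.42, 17.3 and 12.2 CPM in KO. WT libraries 1 and 2 were the lowest of the 6 for both genes. Per1, which light and glucocorticoids also induce, did not split the WT libraries in that way, with 8.00, 19.4 and 22.1 CPM in WT and 18.0, 24.3 and 27.2 CPM in KO.

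The REV-ERB genes differed from each other. Nr1d2 mRNA stood at 21.8, 25.3 and 41.5 CPM in WT kidney and 41.7, 51.2 and 56.1 CPM in KO, so that the lowest KO value was above the highest WT value. Among all 70545 transcripts tested, 10.1% had all KO libraries above all WT libraries, and Nr1d2 was the 1 clock gene of 10 that did. Nr1d1 mRNA stood at 15.9, 15.5 and 21.9 CPM in WT and 28.2, 20.2 and 18.0 CPM in KO, and the genotypes overlapped. Nr1d1 footprints stood at 24.0, 23.5 and 24.3 CPM in WT and 51.3, 37.2 and 37.2 CPM in KO. For these footprints the 3 WT libraries lay close together and all KO libraries lay above them, as for 15.5% of 75266 transcripts in kidney Ribo-seq. The 3′ exons of Nr1d1 overlap Thra on the opposite strand by up to 263 bases, and Thra footprints in kidney had a log2 fold change of -0.08 (adjusted p = 0.766).

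**Figure D1:**
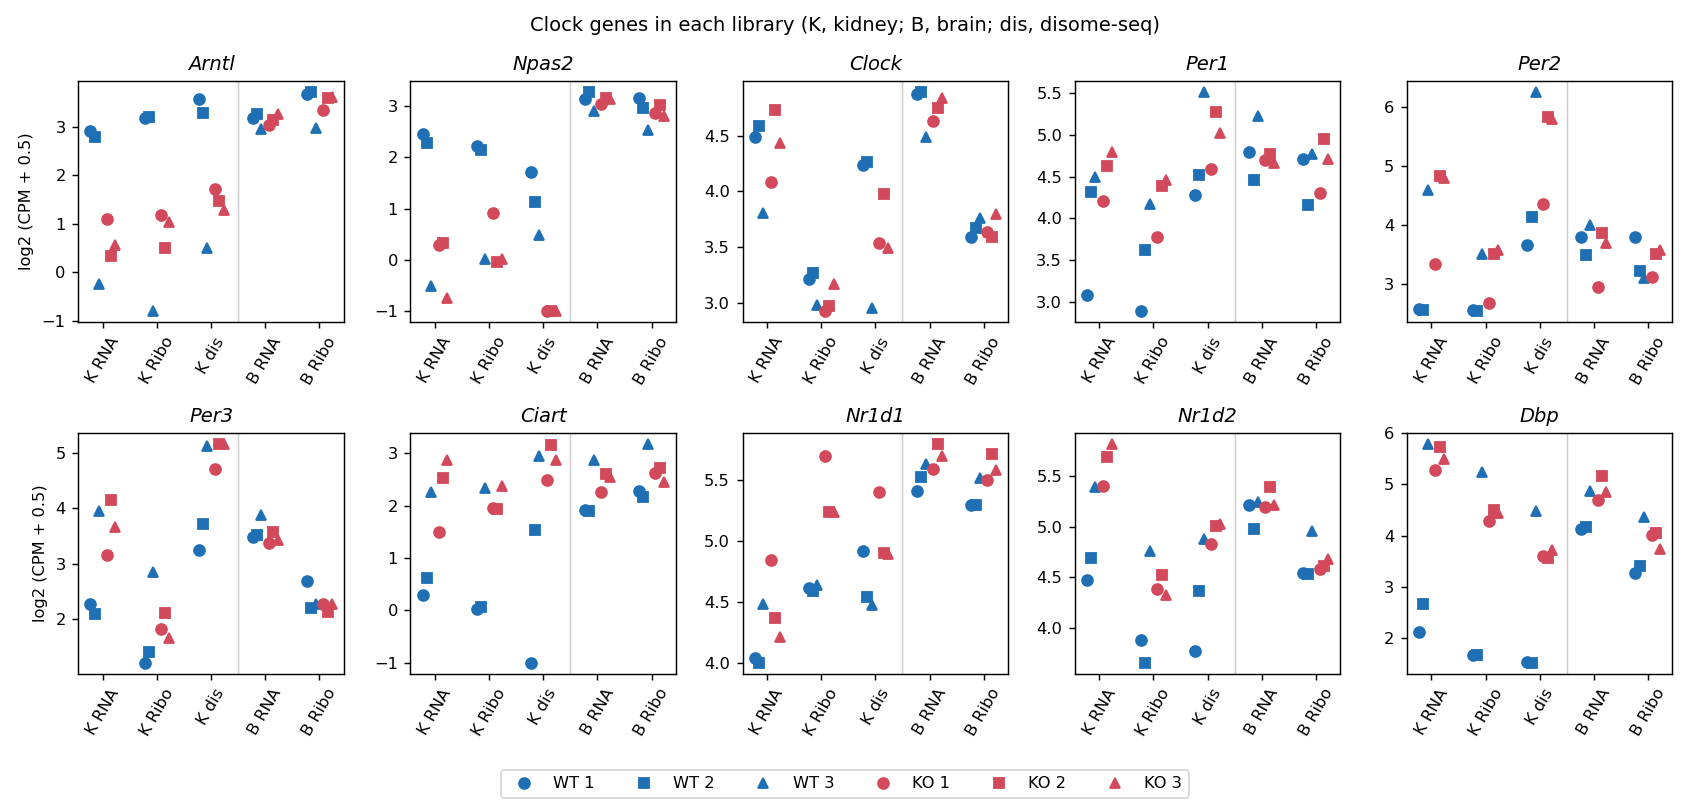
Level of each clock gene in each library, as log2 (CPM + 0.5), in kidney (K) RNA-seq, Ribo-seq and disome-seq (dis) and brain (B) RNA-seq and Ribo-seq. Blue symbols are WT and red symbols KO, and circle, square and triangle are libraries 1, 2 and 3. In kidney the WT triangle lies with the red symbols and apart from the other WT symbols for Arntl, Npas2, Dbp and Ciart in RNA-seq and Ribo-seq, while in disome-seq Npas2 of the WT triangle lies between the other WT libraries and the KO libraries, and a value of -1 marks a library with no count. Each panel has its own vertical scale.

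To place each library by all 10 genes at once, a clock balance was computed as the mean log2 (CPM + 0.5) of Per1, Per2, Per3, Dbp, Nr1d1, Nr1d2 and Ciart minus that of Arntl, Npas2 and Clock. The balance was -0.59, -0.23 and 3.41 in WT kidney RNA-seq libraries 1, 2 and 3, and 2.13, 2.77 and 3.10 in KO. In kidney Ribo-seq it was -0.47, -0.37 and 3.19 in WT and 1.84, 2.60 and 2.31 in KO. In kidney disome-seq it was -0.25, 0.58 and 3.50 in WT and 2.86, 3.22 and 3.38 in KO. In each of the 3 assays the balance of WT library 3 was above that of every KO library, while WT libraries 1 and 2 were below every KO library. The mean difference, KO minus WT, was 1.81 in kidney RNA-seq, against an SD of 2.21 among the WT and 0.49 among the KO libraries (n = 3 each). It was 1.47 in Ribo-seq, with an SD of 2.09 in WT, and 1.88 in disome-seq, with an SD of 1.97 in WT, so that in every kidney assay the difference between genotypes was smaller than the spread within WT. Without WT library 3 it was 3.08, 2.67 and 2.99 in the same order. Without WT library 1, whose kidney Ribo-seq library had the highest pancreas markers, it was 0.84 in Ribo-seq, and the part of those markers was not tested. The balance is a score over genes chosen for their known roles and was given no test.

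In brain the libraries were closer together. The balance was 0.38, 0.20 and 1.08 in WT brain RNA-seq and 0.53, 0.77 and 0.55 in KO, and 0.32, 0.12 and 0.93 in WT brain Ribo-seq and 0.49, 0.55 and 0.45 in KO. WT library 3 was again the highest of the 6 in both assays and WT libraries 1 and 2 the lowest. The difference between genotypes was 0.07 in RNA-seq and 0.04 in Ribo-seq, against SDs of 0.47 and 0.42 among WT libraries. WT brain library 3 is the one with the pituitary markers, and their part in its balance was not tested. WT brain library 2, with the highest blood markers, had the lowest balance in both assays, and the part of those markers was not tested either. Without that library the difference was -0.11 in RNA-seq and -0.13 in Ribo-seq.

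**Figure D2:**
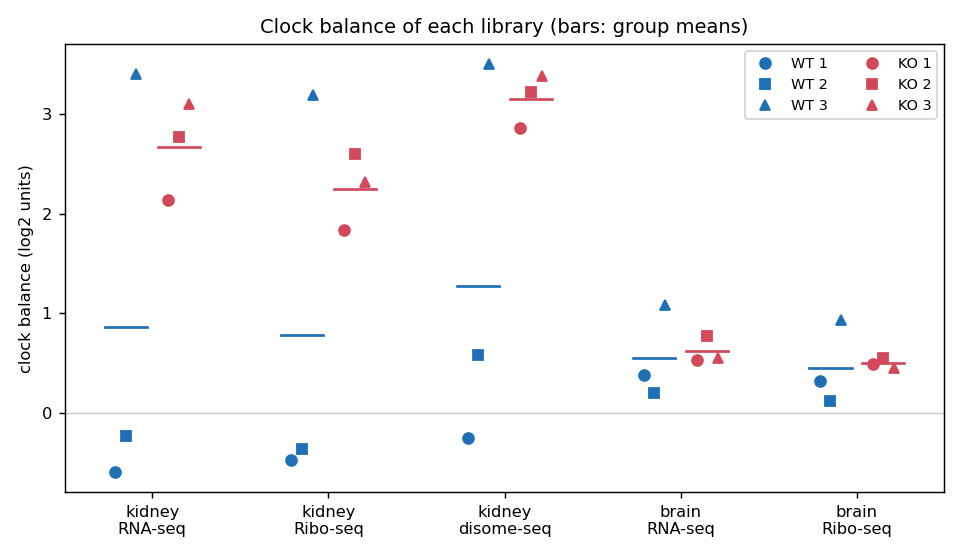
Clock balance (vertical axis, log2 units) of each of the 30 libraries by tissue and assay. Blue is WT and red KO, symbols mark library numbers and horizontal bars are group means. WT library 3 tops every group of 6, and in kidney WT libraries 1 and 2 lie below all KO libraries.

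The question whether loss of Rpl41 altered clock gene mRNA in kidney was tested by edgeR's quasi-likelihood test on all transcripts. At an adjusted p under 0.05, 0 of the 10 clock genes were called, against 0.00992% of the 70545 transcripts tested, and 3 had an unadjusted p under 0.05, against 16.8% of transcripts. Those 3 were Nr1d2, with a log2 fold change of 0.75 ± 0.25 (SE, adjusted p = 0.292), Npas2 (-2.58 ± 1.04, adjusted p = 0.292) and Arntl (-2.03 ± 0.87, adjusted p = 0.295). DESeq2 also called 0 of the 10. The fold changes of Dbp (1.06 ± 0.86) and Ciart (1.24 ± 0.68) were large and their errors too. Over the 10 genes, 8 fold changes were positive and the median was 0.60, beside -0.03 over all transcripts.

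The question for translation was whether the footprints on clock gene transcripts differed. In kidney Ribo-seq, 2 of the 10 were called, against 7.76% of 75266 transcripts, made up of 4.75% higher and 3.01% lower in KO. At an unadjusted p under 0.05 the count was 5 of 10, against 25.3%. Nr1d1 footprints were higher in KO, with 41.9 ± 8.13 CPM against 23.9 ± 0.399 CPM in WT (SD, n = 3), a log2 fold change of 0.79 ± 0.13 (SE, adjusted p = 0.00774). Npas2 footprints were lower, with 0.789 ± 0.515 CPM against 2.87 ± 2.05 CPM (SD, n = 3), a log2 fold change of -2.31 ± 0.52 (adjusted p = 0.022), although WT library 3 lay within the KO range. That call was lost under DESeq2 (adjusted p = 0.221), with counts summed per gene (0.0898) and without any 1 of WT library 1, WT library 2, KO library 2 or KO library 3. Arntl, at -2.22 ± 0.64, just missed the threshold (adjusted p = 0.0515).

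Leaving out WT library 3 enlarged the kidney fold changes and the number of calls. In Ribo-seq 8 of the 10 clock genes were then called, 6 higher and 2 lower in KO, while the number of all transcripts called was 5843 in place of 5838. The log2 fold change became 2.96 for Dbp (adjusted p = 4.19e-07), 2.88 for Ciart (0.000261), 1.07 for Per1 (0.0135), 0.90 for Per2 (0.0209), 0.66 for Nr1d2 (0.00788) and -2.73 for Arntl (3.35e-05). Per3 and Clock were not called. In RNA-seq, 10 of 72601 transcripts were then called, among them 1 clock gene, Dbp, with a log2 fold change of 3.20 (adjusted p = 0.0288). WT library 3 was singled out by the values of these same genes, so these calls are no independent evidence of a genotype difference. With the hour of collection unknown, a difference between genotypes and a difference in clock state between the mice cannot be told apart. Without KO library 1, kidney RNA-seq called 12466 transcripts and 1 clock gene, Nr1d2 (0.87, adjusted p = 0.048).

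**Figure D3:**
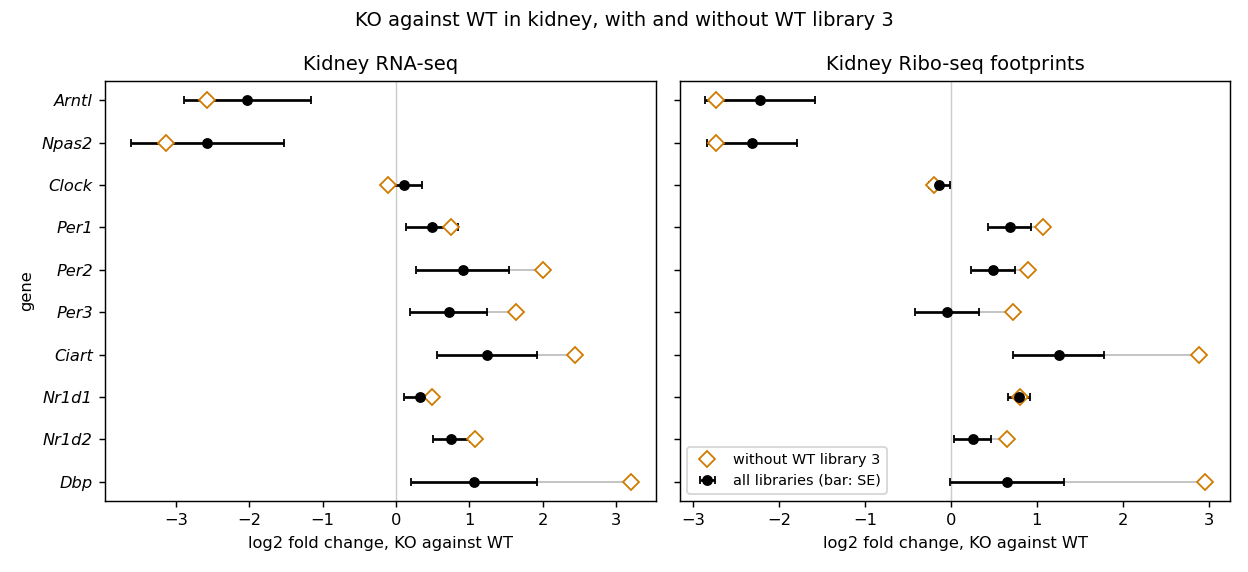
Log2 fold change of KO against WT for each clock gene in kidney RNA-seq and Ribo-seq. Black points are the fits of all 6 libraries with their standard errors, and open diamonds the fits without WT library 3. For Dbp the value moves from 1.06 to 3.20 in RNA-seq and from 0.65 to 2.96 in Ribo-seq, while for Nr1d1 in Ribo-seq it hardly moves.

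Disome-seq, in which a fragment marks a collided or closely following pair of ribosomes, repeated the order of the kidney libraries. Dbp stood at 2.42, 2.38 and 21.8 CPM in WT disome libraries 1, 2 and 3 and 11.6, 11.3 and 12.7 CPM in KO. Arntl had 33, 27 and 1 counts in WT and 6, 4 and 2 in KO, and Npas2 had 8, 5 and 1 counts in WT and 0 in each KO library, so both fell under the count filter and were not tested. A count of 0 allows up to 3 counts in each library. With those 2 untested, 0 of 8 clock genes were called, against 0.201% of 34754 transcripts (0.0691% higher and 0.132% lower in KO). DESeq2 also called 0, while 4 had an unadjusted p under 0.05, against 10.8% of transcripts. The lowest p was that of Per3, which stood at 8.99, 12.6 and 34.4 CPM in WT and 25.5, 35.5 and 35.1 CPM in KO, with a log2 fold change of 1.00 ± 0.31 (SE, adjusted p = 0.204). Without WT library 3, 4 of 9 clock genes were called, beside 173 of 39268 transcripts. They were Dbp (2.27, adjusted p = 0.00371), Per3 (1.55, 0.00302) and Per2 (1.54, 0.0245) above and Arntl (-2.06, 0.0146) below. As in Ribo-seq, the library left out was singled out by the values of these genes, so these calls are no independent evidence. With no count filter, 278 of 96858 transcripts were called, among them Per3 (0.99, adjusted p = 0.0167) and Arntl (-1.80, adjusted p = 0.0236). With the replicate number as a block, 252 of 34754 were called, among them Per3 (1.04, adjusted p = 0.0478).

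The disome libraries gave Per2 and Per3 a larger share of their counts than the Ribo-seq libraries did. Per3 disome values of 8.99 to 35.5 CPM lay above all of its Ribo-seq values, which ran from 1.83 to 6.68 CPM over the 6 kidney libraries. Per2 disome values ran from 12.1 to 76.1 CPM and its Ribo-seq values from 5.31 to 11.4 CPM, again without overlap. The ratio of mean disome CPM to mean Ribo-seq CPM was 5.25 in WT and 10.1 in KO for Per3 and 4.88 and 4.68 for Per2, against a median of 0.864 in WT and 0.836 in KO over the coding genes with a mean of at least 1 CPM in Ribo-seq. In WT, 1.01% of 12165 genes had a higher ratio than Per3 and 1.29% a higher one than Per2. In KO the shares were 0.176% and 1.56% of 11914 genes. The WT value of Per2 rested in part on library 3, without which its ratio was 2.72 and 5.97% of 12227 genes had a higher one, whereas that of Per3 was then 5.42, with 1.01% of genes higher. Other clock genes were above the median as well. Per1 had a ratio of 2.39 in WT, with 7.77% of genes higher, and 1.71 in KO, with 14.9% higher. Clock had 1.75 and 1.61, Ciart 1.72 and 1.80, Arntl 1.24 and 1.65, and Nr1d2 1.18 and 1.47 in WT and KO. Npas2 had 0.624 in WT. Ciart and Npas2 had at most 15 and 8 disome counts in a library. Dbp had a ratio of 0.570 in KO and 0.626 in WT, or 0.890 in WT without library 3, beside a median of 0.860. Nr1d1 stood nearer the median with 1.03 in WT and 0.799 in KO. These ratios describe shares of different libraries. Whether the genotypes differ in them was not tested, and the counts behind the disome values were 26 to 63 for Per3 and 35 to 100 for Per2.

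Translational efficiency (TE), the RPF change relative to the mRNA change, was tested by the interaction of assay and genotype, with both assays in 1 fit. In kidney 0 of the 10 clock genes were called, against 0% of 89685 transcripts, and 0 had an unadjusted p under 0.05, against 19.4% of transcripts. The largest estimates in size were those of Per3, -0.83 ± 0.79, and Nr1d2, -0.51 ± 0.40, and their standard errors were of like size. Arntl, Npas2 and Dbp had standard errors of 1.42, 1.40 and 1.39 in this fit, which did not pair libraries of the 2 assays. The spread of the WT libraries thus entered the error from both assays, and the fit could not decide on a TE change of either sign for them. In brain 0 of 10 were called, against 0% of 98861 transcripts, 0 had an unadjusted p under 0.05 against 4.85%, and the estimates ran from -0.31 (Dbp) to 0.27 (Per1). DESeq2 called 0 of 10 in both tissues, and so did a fit that paired Ribo-seq and RNA-seq libraries of equal number and genotype.

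In brain no clock gene was called at the mRNA or the footprint level. Dbp mRNA stood at 17.0, 17.6 and 28.9 CPM in WT brain libraries 1, 2 and 3 and 25.5, 35.0 and 28.5 CPM in KO. Arntl mRNA stood at 8.57, 9.05 and 7.28 CPM in WT and 7.75, 8.32 and 9.16 CPM in KO. WT library 3 had the lowest Arntl and the highest Dbp of the WT libraries, as in kidney, but Arntl spanned 7.28 to 9.16 CPM over the 6 brain libraries where it had spanned 0.347 to 7.04 CPM in kidney. In RNA-seq 0 of 10 clock genes were called, against 0.0134% of 89237 transcripts, and 0 had an unadjusted p under 0.05, against 3.46%. The largest estimate was that of Dbp, at 0.49 ± 0.22 (SE, adjusted p = 0.898). In Ribo-seq 0 of 10 were called, against 0.0345% of 81112 transcripts (0.00123% higher and 0.0333% lower in KO). In that assay 0 had an unadjusted p under 0.05, against 12.6%, and Nr1d1 was highest at 0.23 ± 0.11 (adjusted p = 0.418). DESeq2 called 0 of 10 in both.

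Without WT brain library 3, the one with pituitary markers, still 0 of 10 were called in either assay. The log2 fold change of Dbp was then 0.78 (unadjusted p = 0.00121, adjusted p = 1) in RNA-seq and 0.64 (0.000935, adjusted p = 0.143) in Ribo-seq, and that of Ciart 0.64 (0.00727, adjusted p = 1) and 0.42 (0.0274, adjusted p = 0.305). Arntl, Npas2 and Clock stayed between -0.19 and 0.05. The repressor genes Per1, Per2 and Per3 stood between -0.32 and 0.21.

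Whether the effect of the knockout differed between tissues was tested by the interaction of tissue and genotype. In RNA-seq 0 of 10 clock genes were called, against 0.00108% of 92865 transcripts, and 2 had an unadjusted p under 0.05, against 8.13%. Those were Npas2 (-2.58 ± 1.04, SE, adjusted p = 0.599) and Arntl (-2.05 ± 0.92, adjusted p = 0.599), each more negative in kidney. In Ribo-seq 0 of 10 were called, against 0.0801% of 88666 transcripts (0.0338% more positive and 0.0462% more negative in kidney). There 3 had an unadjusted p under 0.05, against 7.69%, namely Npas2 (-2.31 ± 0.57, adjusted p = 0.209), Arntl (-2.28 ± 0.71, adjusted p = 0.373) and Nr1d1 (0.57 ± 0.18, adjusted p = 0.381). DESeq2 called 0 in both assays. Without WT kidney library 3, Ribo-seq called 4 of 10, beside 125 of 90577 transcripts. Ciart (2.96, adjusted p = 0.0125) and Dbp (2.82, 0.0018) were more positive in kidney and Arntl (-2.78, 0.000876) and Npas2 (-2.72, 0.0029) more negative. The library left out was singled out by the values of these same genes, so these calls are no independent evidence of a tissue difference. RNA-seq called 0 of 10 without any 1 library.

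The clock genes were also ranked within each WT tissue by mRNA level per length. In brain the order by mean CPM per kilobase was Nr1d1 (16.7), Dbp (11.5), Nr1d2 (7.50), Per1 (6.13), Arntl (3.37), Clock (2.73), Ciart (2.30), Per2 (2.27), Per3 (1.99) and Npas2 (1.93). Of neighbours in that order, only Dbp and Nr1d2, and Per1 and Arntl, were apart in all 3 libraries of each, and the others overlapped. In kidney the order of means was Dbp (11.7), Nr1d1 (6.53), Nr1d2 (6.34), Per1 (3.54), Clock (2.02), Per2 (1.98), Arntl (1.87), Per3 (1.28), Ciart (1.04) and Npas2 (0.753), and every pair of neighbours overlapped. The kidney order rests on libraries that differ. Dbp ran from 2.09 to 29.9 CPM per kilobase there and Arntl from 0.141 to 2.86, against 9.25 to 15.7 and 2.95 to 3.67 in brain.

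**Figure D4:**
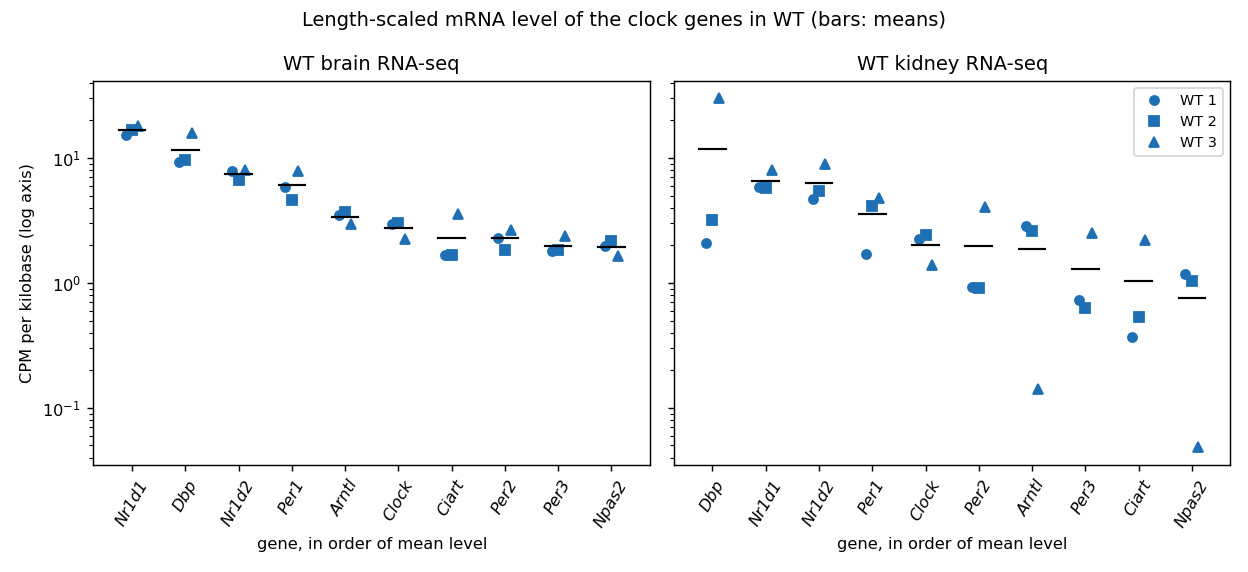
CPM per kilobase of transcript (log axis) of each clock gene in the 3 WT RNA-seq libraries of brain and of kidney, in order of the mean (bar). Symbols mark library numbers. In kidney library 3 lies above the other libraries for Dbp, Per2, Per3 and Ciart and below them for Arntl, Npas2 and Clock, and in brain the libraries lie close together.

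Between WT kidney and WT brain RNA-seq, 1 of the 10 clock genes was called, against 64.1% of 88731 transcripts, 28.3% higher and 35.8% lower in kidney. Of the 10, 1 had an unadjusted p under 0.05, against 67.4%. Nr1d1 was lower in kidney, with a log2 fold change of -1.07 ± 0.17 (SE, adjusted p = 0.00025) after scaling over both tissues together. Its CPM, scaled within each tissue, were 17.8 ± 3.55 in kidney against 45.5 ± 3.58 in brain (SD, n = 3). Thra, which overlaps Nr1d1 on the opposite strand, was also lower in kidney (-2.43, adjusted p = 1.73e-06), and its part in the Nr1d1 counts was not tested. Among the other clock genes, Npas2 (-1.04 ± 0.70), Ciart (-0.87 ± 0.57) and Arntl (-0.53 ± 0.69) had estimates of similar or smaller size with much larger errors. Without WT kidney library 3, which the values of these genes had singled out, 63654 of 93640 transcripts were called in either direction. Of the 10 clock genes, 7 were then called, all lower in kidney. They included Dbp, which went from 0.28 to -1.79 (adjusted p = 3.78e-05), and Per2, which went from 0.07 to -0.97 (adjusted p = 0.000575), while Ciart reached -2.02 (adjusted p = 0.000296).

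To find the genes most like the clock genes, each gene was compared with the clock balance over the 12 RNA-seq and Ribo-seq libraries of a tissue, after centring on the mean of each assay. These are descriptions over libraries that fall into separate clusters in kidney and share their scaling. Of 13386 genes in kidney, Tef (Pearson r = 0.98), which encodes a D-box factor related to DBP, and Coq10b (0.97), a coenzyme Q protein, were highest, followed by Acy1 (0.93), Upp2 (0.93) and Gstt2 (0.91). Lowest were Fam222a (-0.98), Palm3 (-0.95), Tstd2 (-0.95), Pi4k2a (-0.94) and Dtx4 (-0.93). Tef stood at 104, 96.4 and 249 CPM in WT kidney RNA-seq and 187, 241 and 217 CPM in KO, with counts summed per gene. Coq10b stood at 13.8, 11.8 and 36.9 CPM in WT and 25.5, 26.8 and 28.7 CPM in KO. Both had the order of Dbp, with WT library 3 highest and WT libraries 1 and 2 lowest. Fam222a ran the other way at a low level, with 2.59, 2.33 and 1.19 CPM in WT and 1.76, 1.41 and 1.45 CPM in KO.

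**Figure D5:**
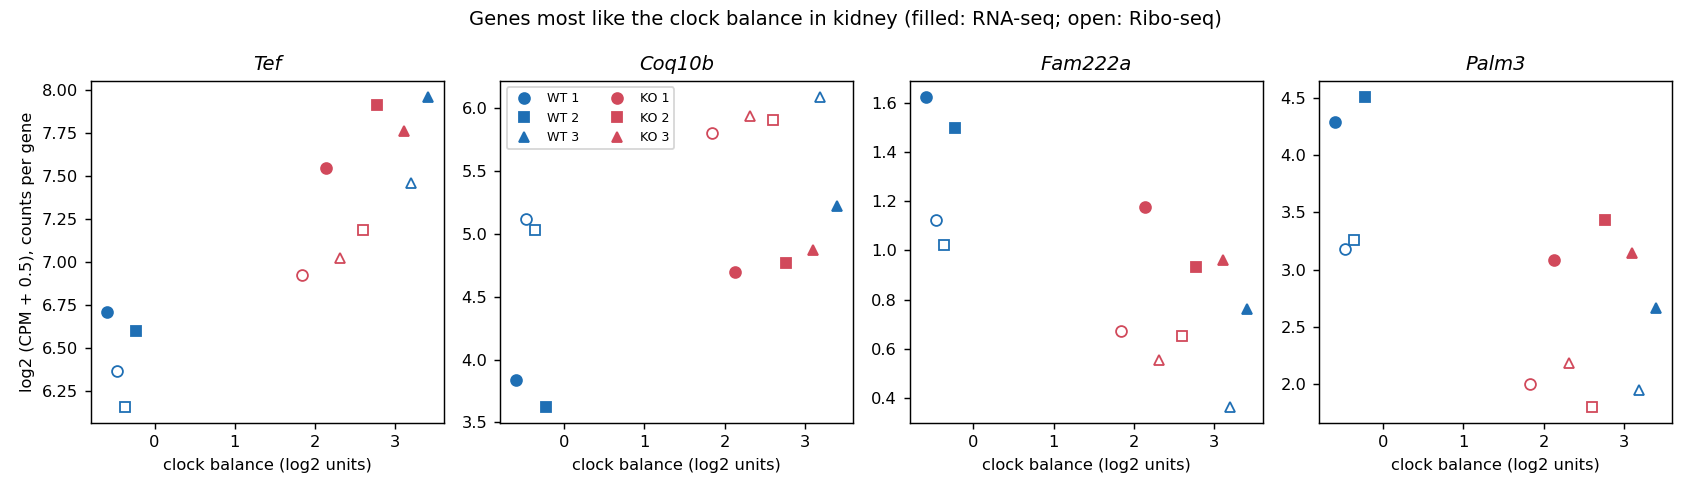
Level of Tef, Coq10b, Fam222a and Palm3 in kidney, as log2 (CPM + 0.5) of counts per gene, against the clock balance of the same library. Filled symbols are RNA-seq and open symbols Ribo-seq, blue is WT and red KO. WT libraries 1 and 2 form a group on the left, and WT library 3 lies on the right with the KO libraries.

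In brain, of 16576 genes, the highest were Rnf121 (0.92), Pcdhb12 (0.92), Slc2a1 (0.92), Fibin (0.91) and Lfng (0.91), and the lowest Kctd4 (-0.89), Tpm3-rs7 (-0.87), 1810010H24Rik (-0.87), Neurod6 (-0.87) and Olig2 (-0.86). Slc2a1, the glucose transporter of the blood-brain barrier, stood at 56.5, 51.6 and 95.5 CPM in WT brain RNA-seq and 67.1, 62.7 and 66.4 CPM in KO. Neurod6, a factor of cortical neurons, stood at 18.3, 21.5 and 12.3 CPM in WT and 17.0, 19.3 and 18.6 CPM in KO. In both genes WT library 3, which carries the pituitary markers, was the farthest from the rest, and the part of those markers in this likeness was not tested.

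Further genes of the pathway were read from lists. Of 16 other clock genes (among them the Cry and Bhlhe4 families, Rora, Tef, Hlf, Nfil3 and regulators of PER and CRY stability), 15 were tested in kidney RNA-seq and 0 were called, with 1 at an unadjusted p under 0.05, against 16.8% of all transcripts, and a median log2 fold change of 0.07 beside -0.03 over all transcripts. The lowest p were those of Rora (0.89 ± 0.28, SE, adjusted p = 0.292), an activator that competes with REV-ERB at ROR elements, and Tef (0.60 ± 0.32, adjusted p = 0.336). In kidney Ribo-seq 0 of 15 were called, 4 had an unadjusted p under 0.05, against 25.3% of all transcripts, and the median was -0.13 beside -0.01, with Bhlhe40 (0.47 ± 0.18, adjusted p = 0.131) and Csnk1d (-0.30 ± 0.12, adjusted p = 0.137) lowest in p. In brain 0 of 16 were called in either assay, with 0 and 4 at an unadjusted p under 0.05 in RNA-seq and Ribo-seq, against 3.46% and 12.6% of all transcripts.

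Among 10 known output genes of the clock, 0 were called in kidney RNA-seq, where Usp2, a deubiquitinase, had the lowest p (1.31 ± 0.36, SE, adjusted p = 0.292). In kidney Ribo-seq 1 of 10 was called, near the 7.76% of all transcripts. It was Slc9a3, the sodium-proton exchanger of the proximal tubule, with 29.8, 30.8 and 32.2 CPM in WT and 53.2, 43.3 and 48.1 CPM in KO (0.64 ± 0.11, adjusted p = 0.00885). Like Nr1d1 it did not set WT library 3 apart. Its kidney mRNA gave no such separation, with 2.85, 3.01 and 6.11 CPM in WT and 3.86, 1.07 and 1.98 CPM in KO. In brain 0 of the 10 were called in either assay. Between WT tissues 8 of the 10 were called, each higher in kidney, where 28.3% of all transcripts were called higher.

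A pair of further lists covered signals that can reset clocks. Of 7 glucocorticoid target genes, 0 were called between genotypes in RNA-seq or Ribo-seq of either tissue. In kidney RNA-seq 1 had an unadjusted p under 0.05, against 16.8% of all transcripts, namely Klf9 (1.22 ± 0.29, SE, adjusted p = 0.292). In the other 3 comparisons 0 did. Of 8 temperature genes (cold-induced Cirbp and Rbm3 and heat shock genes), 0 were called. At an unadjusted p under 0.05 there were 0 in kidney RNA-seq and 2 in kidney Ribo-seq, against 16.8% and 25.3% of all transcripts. In brain there were 1 in RNA-seq and 4 in Ribo-seq, against 3.46% and 12.6%. Lowest in p were Hsp90aa1 in kidney RNA-seq (0.94 ± 0.43, adjusted p = 0.301) and Hspa1a in kidney Ribo-seq (0.79 ± 0.34, adjusted p = 0.166). For both lists 0 calls were made in disome-seq and for TE as well. At an unadjusted p under 0.05 there were 2 glucocorticoid targets in disome-seq, against 10.8% of all transcripts. For kidney TE there was 1, against 19.4%, and 0 temperature genes had such a p in either.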

How the data were processed

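Kidney and brain of Rpl41 WT and KO mice were measured by RNA-seq and Ribo-seq, and kidney also by disome-seq, in 30 libraries. The authors trimmed reads with cutadapt, removed rRNA reads and aligned with STAR to the mouse transcriptome and genome (GRCm38.p6, mm10), allowing multimapping reads, and deposited raw read counts per transcript made with featureCounts. Since 1 read could be counted for more than 1 transcript, transcripts of a gene share reads, and a library's total can be larger than its number of reads. Versions of these tools were not given in the sources used here. Of 142604 transcripts, 141374 matched GENCODE M21. A table of human transcripts, whose 28 value columns carry mouse sample titles, and the samples of the human cell line HEK293T were not used here.

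After edgeR's filterByExpr, TMM scaling was done separately for each tissue and assay, and CPM are counts per 1000000 of the scaled total. The test between WT kidney and WT brain RNA-seq was the exception, with TMM scaling over both tissues together. Its fold changes are therefore not ratios of the CPM printed. Fold changes are log2 values from edgeR's quasi-likelihood test, fitted on every transcript that passed the filter, with Benjamini-Hochberg adjustment over all of them and a threshold of 0.05. Standard errors (SE) were obtained by dividing the absolute fold change by the square root of F. Within a tissue and assay no term other than genotype was fitted. TE and tissue differences were interaction terms. P-values measure the spread between these libraries. The paper speaks of biological replicates from male mice, though the labels do not tie each library to a separate mouse.

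The clock genes and lists were chosen with earlier results of these data known. All 10 clock genes are given in every comparison. Members of the other lists are named where they passed the test or, where none did, as those with the lowest p, and the difference between WT tissues for the other clock genes is not reported here. Genes most like the clock balance are the 5 highest and 5 lowest correlations among genes with at least 10 counts in every library. Alternatives were DESeq2, library totals alone, no filter beyond 1 count, counts summed per gene, the replicate number as a block and each library left out in turn. For TE, a block that paired Ribo-seq and RNA-seq libraries of equal number and genotype was fitted as well. The scripts were tested on simulated counts with a log2 change of 2 in 200 transcripts. Of these, 79.5% were called in kidney RNA-seq, 100% in kidney Ribo-seq and 41.5% for kidney TE. False calls were 17, 31 and 7 in the same order. The ratio of disome to Ribo-seq levels and the overlapping genes were added after the data were seen.

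Tests used edgeR 4.0.16 and DESeq2 1.42.0, with limma 3.58.1, in R 4.3.3. Figures were drawn by matplotlib 3.10.9, and sequences read by pysam 0.24.0, in Python 3.11.15 with numpy 2.4.6 and pandas 2.3.3.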

Additional observations from a re-analysis of the deposited data

How the results depend on the processing

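The kidney Ribo-seq call of Nr1d1 and its call between WT tissues were kept under every alternative run, while the kidney Ribo-seq call of Npas2 was lost under 6. Of 510 fold changes of clock genes recomputed under other settings, 496 kept their direction where called and their side of the threshold, 2 lost a call and 12 gained one. Of 828 with a library left out, 803 did so, 4 lost a call, 19 gained one and 2 turned, and 34 and 79 of the values counted here changed sign without a call. Without WT kidney library 3 the WT tissue difference turned from 0.07 to -0.97 for Per2 and from 0.28 to -1.79 for Dbp, and over all libraries left out it ranged from -0.97 to 0.39 and from -1.79 to 0.78. The clock balance difference moved by less than the SD pooled over both genotypes under 4 other settings and without each library in turn. That SD is mostly the WT spread. Without WT kidney library 3 the balance difference moved by more than 2 times the SD among KO libraries. In brain it changed sign without WT library 1 or 2 and, in RNA-seq, KO library 2. With each library left out, the clock genes called ranged from 0 to 1 in kidney RNA-seq, 1 to 8 in kidney Ribo-seq, 0 to 4 in disome-seq, 0 to 4 for the tissue difference in Ribo-seq and 1 to 7 between WT tissues, the highest each time without WT kidney library 3 (also without KO library 1 in RNA-seq), and stayed at 0 elsewhere. All transcripts called then ranged from 7 to 12466 in kidney RNA-seq (highest without KO library 1), 285 to 5843 in kidney Ribo-seq (lowest without KO library 3), 32 to 173 in disome-seq, 15 to 79 in brain Ribo-seq (highest without WT library 3), 0 to 16559 for kidney TE and 0 to 5655 for the tissue difference in RNA-seq (both highest without KO kidney RNA-seq library 1), 0 to 2 for brain TE and 12 to 125 for the tissue difference in Ribo-seq.

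DESeq2 called 543 transcripts in kidney RNA-seq (7 by edgeR), 3555 in kidney Ribo-seq (5838), with 1 clock gene (2), 26 in brain RNA-seq (12), 365 in brain Ribo-seq (28), 4608 for kidney TE (0), 19 for brain TE (0), and 124 (1) and 238 (71) for the tissue difference in RNA-seq and Ribo-seq. Without the count filter, kidney Ribo-seq called 9936 transcripts and 7 clock genes, disome-seq 278 (70 with the filter) and 2 (0), brain Ribo-seq 1573, kidney TE 11, brain TE 5, and the tissue difference in Ribo-seq 487 and 2 (0). Counts summed per gene called 1 gene in kidney RNA-seq, 805 in kidney Ribo-seq with 1 clock gene, 13 in disome-seq, 5 in brain RNA-seq, 0 in brain Ribo-seq, 13 for kidney TE, 19 for the tissue difference in Ribo-seq and 17294 between WT tissues (56852 transcripts). In part these counts differ because fewer features are tested per gene, and otherwise the cause was not tested.

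The numbers were checked for pairing by correlating deviations from group means. Between kidney RNA-seq and Ribo-seq r was 0.0840 to 0.215 and 6 of 6 libraries matched their own number best, and so did 6 of 6 between disome-seq and each of these assays. Between WT and KO, r had mixed signs in RNA-seq and Ribo-seq and was 0.0690 to 0.130 in disome-seq, where 3 of 3 matched best. Between brain RNA-seq and Ribo-seq r was -0.0727 to 0.366 and 4 of 6 matched best. Between kidney and brain RNA-seq it was 0.0605 to 0.307, also with 4 of 6. Pituitary markers stood apart in library 3, and blood markers in library 2, of both WT brain assays. Not every pair was over 0.1 in any of these correlations, and the labels name no shared animal. The main fits therefore did not take the numbers to pair libraries. With the replicate number as a block, calls were 252 in disome-seq with 1 clock gene (Per3, 1.04, adjusted p = 0.0478), 80 in brain Ribo-seq, 0 and 45 for the tissue difference in RNA-seq and Ribo-seq, and 3 clock genes between WT tissues (with Ciart and Npas2). Per1 was gained in kidney Ribo-seq (0.65, adjusted p = 0.0208). In disome-seq, with at most 3018963 counts in a library, Arntl and Npas2 did not pass the count filter. Arntl passed it without WT library 3, where it was called (adjusted p = 0.0146). It also passed without KO library 1, 2 or 3 (adjusted p = 0.195, 0.427 and 0.378) and was not called. With counts summed per gene it was tested and not called either (adjusted p = 0.529). The disome to Ribo-seq ratios with each library number left out were added after the data were seen.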
